A study of Mus musculus with 4 samples.

Results

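The genes described here are 10 immediate early and stress-response genes of the liver: Fos, Jun, Junb, Atf3, Egr1, Ier2, Dusp1, Zfp36, Gadd45a and Gadd45b. They were taken, by the transcript accession of each probe, from 23462 genes matched on 4 one-colour Agilent arrays of mouse liver, and 11 of 56605 probes belong to them. Immediate early genes are transcribed within minutes of a growth factor, cytokine or stress signal, without new protein synthesis, and their mRNAs decay quickly. In liver they are known from the response to partial hepatectomy, to acute-phase cytokines and to feeding. MAP kinases switch many of them on, their products are largely transcription factors (the AP-1 proteins of the Fos and Jun families, ATF3 and EGR1), and some products close the loop by removing phosphate from the kinases (DUSP1) or by destroying cytokine mRNAs (ZFP36). The GADD45 proteins are small partners of MAP3K4 and of cell-cycle regulators that accumulate with growth arrest and DNA damage.

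The arrays compared floxed control mice (F/F, Lpiat1F/F) with hepatocyte knockouts (LKO, Alb-Cre; Lpiat1F/F), in which the albumin promoter drives Cre and deletes Lpiat1, also named Mboat7, the enzyme that puts arachidonic acid into phosphatidylinositol. All were males of a C57BL/6 background, 24 weeks old, fed chow (CE2) or a high fat diet (HFD, HFD-60) for 18 weeks from the age of 6 weeks, and both genotypes carry the floxed alleles. There was 1 array per combination of genotype and diet, so that each condition is a single value. Whether an array holds the RNA of 1 mouse or of a pool, and at what hour and after what feeding state the livers were taken for it, is not given in the sources used here. No difference below could be tested, and each is a description of these 4 arrays. Because the tissue was bulk liver, fewer cells of a type and less RNA per cell cannot be told apart.

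The scanner software placed 52.96% to 56.98% of an array's spots well above background and none at saturation, and all 4 arrays were on 1 slide. Every one of the 11 probes passed this flag on each array, as did 13981 of the 23462 genes. The hepatocyte marker Alb gave signals of 221091 to 231569. Mboat7 itself, which has 1 probe, gave signals of 1102 in F/F and 861 in LKO on chow, and of 1181 and 1100 on HFD, a log2 difference (LKO minus F/F) of -0.30 and -0.27. It was not determined whether the probe matches exons between the loxP sites, so it does not check the labels. A level below is the log2 processed signal after subtraction of the array's 75th percentile, so that 0 stands for that percentile and 1 unit for 2-fold. As measures of error there were only technical ones. The difference of 2 replicate spots of a probe on an array had a SD of 0.16 at signals of 50 to 500, 0.10 at 500 to 5000 and 0.07 at 5000 to 50000, and the differences given by 2 probes of a gene had a SD of 0.32 for the genotypes on HFD, 0.28 for the genotypes on chow, 0.37 for the diets in F/F and 0.41 for the diets in LKO. Neither contains the spread between mice. Separations below are stated in SD of replicate spots, the narrower measure, unless the SD between probes is named. The SD of replicate spots rests on 17 probes at signals of 50 to 500 and was not taken by signal below 50. As it compares spots of 1 array, it leaves out technical differences between arrays.

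Promoter sequences of 8 of the 10 genes were taken from RefSeq (build GRCm38.p6) as the 250 bases before the annotated start of transcription. The stretches of Atf3, Fos, Gadd45a, Gadd45b, Dusp1 and Zfp36 are shown, the first because Atf3 varied most over the arrays, the Gadd45 pair because its members differed in their pattern, and the others because they hold the classical elements. They lie at chr1:191183334-191183583 (minus strand), chr12:85473640-85473889 (plus strand), chr6:67037408-67037657 (minus strand), chr10:80929841-80930090 (plus strand), chr17:26508473-26508722 (minus strand) and chr7:28379229-28379478 (minus strand). Each is written 5′ to 3′ in the direction of transcription, and capitals mark a cyclic AMP response element (CRE, TGACGTCA, or its core TGACG on either strand), a zinc-finger EGR site (GCGTGGGCG or GCGGGGGCG), a serum response element of the CArG type, or a TATA box (TATAAA, forward strand).
Atf3: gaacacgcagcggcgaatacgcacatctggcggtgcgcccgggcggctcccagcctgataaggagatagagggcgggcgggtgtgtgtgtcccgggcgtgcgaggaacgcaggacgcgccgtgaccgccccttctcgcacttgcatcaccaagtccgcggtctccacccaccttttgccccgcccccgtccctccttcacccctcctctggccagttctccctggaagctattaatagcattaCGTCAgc
Fos: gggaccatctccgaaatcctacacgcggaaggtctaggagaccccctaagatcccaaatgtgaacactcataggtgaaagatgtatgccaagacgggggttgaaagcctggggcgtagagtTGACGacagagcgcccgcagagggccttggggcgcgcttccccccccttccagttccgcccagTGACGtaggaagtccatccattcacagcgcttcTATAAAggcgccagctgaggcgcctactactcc
Gadd45a: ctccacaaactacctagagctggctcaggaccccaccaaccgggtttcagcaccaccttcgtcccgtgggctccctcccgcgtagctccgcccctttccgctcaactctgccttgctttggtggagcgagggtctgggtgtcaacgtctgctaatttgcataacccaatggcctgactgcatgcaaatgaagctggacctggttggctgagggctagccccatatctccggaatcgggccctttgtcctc
Gadd45b: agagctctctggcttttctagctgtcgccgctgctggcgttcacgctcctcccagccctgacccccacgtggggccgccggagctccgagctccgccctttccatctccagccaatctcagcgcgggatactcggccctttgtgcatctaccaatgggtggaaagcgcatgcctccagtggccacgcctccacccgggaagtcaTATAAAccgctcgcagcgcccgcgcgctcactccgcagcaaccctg
Dusp1: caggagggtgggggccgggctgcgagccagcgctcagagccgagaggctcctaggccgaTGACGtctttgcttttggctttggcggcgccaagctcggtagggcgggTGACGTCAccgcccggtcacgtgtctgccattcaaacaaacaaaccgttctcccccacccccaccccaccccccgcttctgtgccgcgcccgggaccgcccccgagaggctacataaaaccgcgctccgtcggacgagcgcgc
Zfp36: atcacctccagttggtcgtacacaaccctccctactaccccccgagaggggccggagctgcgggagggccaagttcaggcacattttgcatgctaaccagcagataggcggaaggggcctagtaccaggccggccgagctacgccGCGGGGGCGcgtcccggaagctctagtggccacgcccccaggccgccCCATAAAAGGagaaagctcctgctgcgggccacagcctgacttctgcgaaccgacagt

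The CRE core was present in the stretches of Fos, Junb, Atf3 and Dusp1, 4 of 8, and in 17.77% of 32851 mouse promoter stretches of that length. In Fos it stood 66 to 62 and 129 to 125 bases before the start, in Junb 106 to 102, and in Atf3 7 to 3 bases before the start on the opposite strand. Dusp1 alone held the whole palindrome, 143 to 136 bases before the start, which contains 2 of its 3 cores and is found in 1.546% of all stretches. Zfp36 held the EGR site at 105 to 97 and a CArG box at 58 to 49 bases before the start, motifs of 3.059% and 1.467% of all stretches. TATAAA was found in Fos and Gadd45b (7.592% of all), and the AP-1 site (TGACTCA or TGAGTCA, 4.463% of all) in none of the 8. The stretch of Gadd45a contained none of these letters and that of Gadd45b only the TATA box. GC content was 58.4% to 68.4% in the 8 stretches, against a median of 52.4% over all. These matches describe letters, and the arrays did not measure binding.

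The brightest array of a gene was always an F/F array. Egr1, Junb, Gadd45a, Gadd45b and Zfp36 had their highest level in F/F chow, and Fos, Jun, Ier2, Atf3 and Dusp1 in F/F HFD. The lowest level was that of LKO HFD for 5 genes (Egr1, Junb, Dusp1, Gadd45a and Zfp36), of LKO chow for 3 (Fos, Ier2 and Gadd45b) and of F/F chow for Jun and Atf3. The 4 levels of a gene spanned from 1.44-fold (Dusp1) to 11.4-fold (Atf3). These genes were chosen from the measured differences of the same arrays, so the order of genotypes is a property of the choice and no independent support for it.

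**Figure D1:**
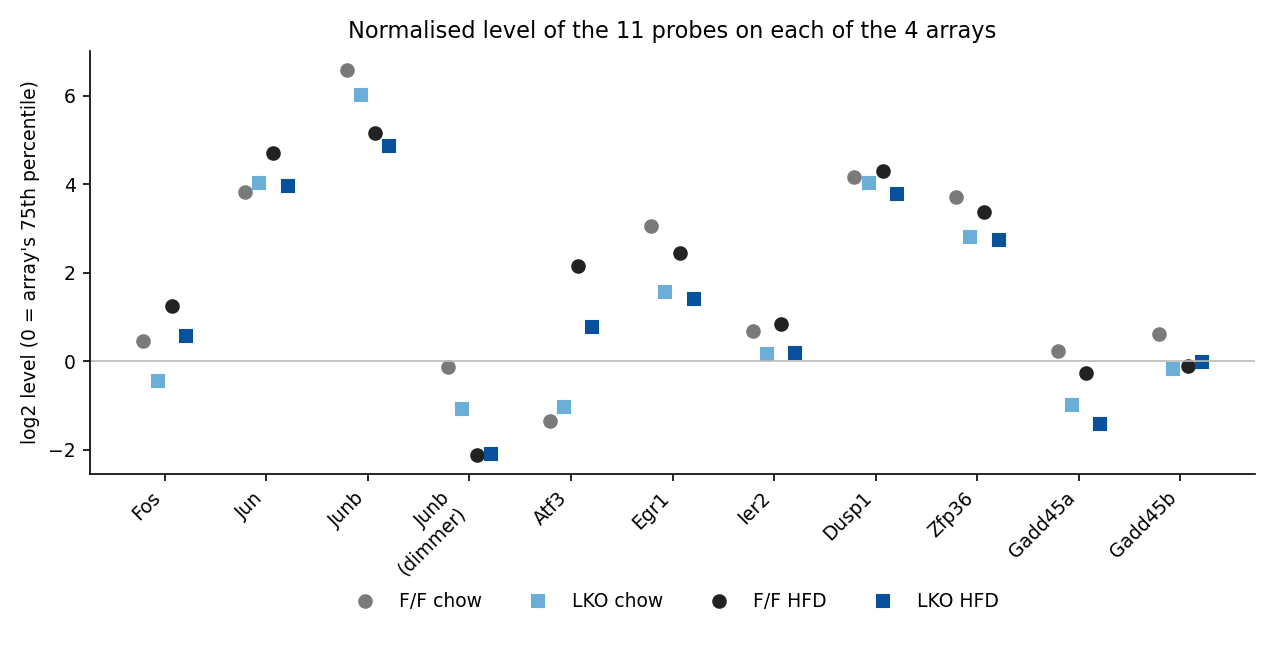
Normalised log2 level (y axis, 0 is the 75th percentile of the array) of each of the 11 probes (x axis) on the F/F (circles) and LKO (squares) arrays of each diet, 1 point per array and no error bar, since each condition has a single array. Heights of different probes are not comparable, but within each gene the highest point of the representing probe is an F/F array, and Atf3 covers the widest range, from -1.35 to 2.16.

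Among the AP-1 proteins, Fos encodes the inducible partner that binds DNA only as a dimer with a Jun protein. Its signal was 304 in F/F chow, 156 in LKO chow, 626 in F/F HFD and 441 in LKO HFD, or levels of 0.46, -0.46, 1.25 and 0.58. Its differences were at least 0.67 in all 4 comparisons, as for no other member: lower in LKO by 0.91 on chow and 0.67 on HFD, and higher on HFD by 0.79 in F/F and 1.03 in LKO. LKO HFD and F/F chow, which lay between the extremes, differed by 0.12, less than 2 SD of replicate spots.

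Jun encodes the partner of FOS that JNK phosphorylates. The signals of 3156 in F/F chow, 3449 in LKO chow, 6796 in F/F HFD and 4591 in LKO HFD gave levels of 3.83, 4.02, 4.69 and 3.96. A single array, F/F HFD, stood above the rest by 0.68, and neighbouring levels of the other 3 arrays lay within 2 SD of replicate spots of each other. LKO was thus lower than F/F on HFD (-0.73) and 0.18 higher on chow.

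Junb, encoding a Jun protein that also restrains Jun activity, gave 21172 in F/F and 13850 in LKO on chow, against 9358 and 8572 on HFD. Its levels of 6.58, 6.02, 5.15 and 4.86 were all separated by more than 2 SD of replicate spots. The gap between the genotypes on HFD was, however, smaller than the SD of the differences given by 2 probes of a gene (0.32). HFD was lower than chow by 1.43 in F/F and by 1.16 in LKO, the opposite of Fos and Atf3. A dimmer probe for the same transcript gave signals of 201, 101, 60.8 and 69.5 in the same order of arrays. This probe showed the diet difference too, -1.97 in F/F against -1.01 in LKO. Its genotype difference on chow was larger (-0.94 against -0.56), but on HFD it was 0.03 higher in LKO, where the brighter probe was 0.29 lower.

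Atf3, a stress-induced member of the ATF/CREB family that mostly represses its targets, differed most between diets. Its signal was 86.9 in F/F chow and 103 in LKO chow, and 1175 in F/F HFD and 505 in LKO HFD. The levels of -1.35, -1.04, 2.16 and 0.77 put both HFD arrays above both chow arrays. HFD exceeded chow by 3.51 (11.4-fold) in F/F and by 1.82 (3.52-fold) in LKO. On HFD, LKO was lower than F/F by 1.39 (2.62-fold), while on chow it was 0.31 higher, a difference within 2 SD of replicate spots. Of the 13980 other genes well above background on all 4 arrays, those with the smallest distance between centred profiles were Stap1 (0.50), with signals of 16.9 in F/F chow, 29.5 in LKO chow, 212 in F/F HFD and 109 in LKO HFD, and Slc22a29 (0.57).

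Egr1 encodes a zinc-finger transcription factor that serum response factor and MAP kinases induce. Its signal of 1834 in F/F chow, 625 in LKO chow, 1427 in F/F HFD and 781 in LKO HFD corresponded to levels of 3.05, 1.55, 2.44 and 1.40. Both LKO arrays lay below both F/F arrays, 2.82-fold on chow and 2.05-fold on HFD (log2 difference -1.04), and the pair of LKO arrays differed by only 0.15. The level in F/F was 0.61 lower on HFD than on chow, within 2 SD of the differences given by 2 probes of a gene (SD 0.37 in F/F). Ier2, which encodes a small nuclear protein, also had both LKO arrays below both F/F arrays. It gave signals of 357 in F/F chow, 238 in LKO chow, 473 in F/F HFD and 335 in LKO HFD, and levels of 0.69, 0.16, 0.85 and 0.18. LKO was lower by 0.53 on chow and 0.67 on HFD, and the diets differed by 0.16 in F/F and 0.02 in LKO, within 2 SD of replicate spots.

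Of the genes whose products end the response, Dusp1 encodes the phosphatase that inactivates stress-activated MAP kinases. Its signals of 3938 in F/F chow, 3479 in LKO chow, 5195 in F/F HFD and 4053 in LKO HFD gave levels of 4.15, 4.03, 4.30 and 3.78. It had the narrowest range of the 10 genes, and LKO was lower by 0.12 on chow and 0.53 on HFD. Zfp36 encodes tristetraprolin, which binds AU-rich elements of cytokine mRNAs and hastens their decay. It was measured at 2915 in F/F chow, 1496 in LKO chow, 2708 in F/F HFD and 1957 in LKO HFD, with levels of 3.72, 2.81, 3.36 and 2.73. Both LKO levels were below both F/F levels, by 0.91 on chow and 0.64 on HFD.

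The growth arrest genes did not follow a single pattern. Gadd45a had signals of 262 in F/F chow, 107 in LKO chow, 218 in F/F HFD and 110.0 in LKO HFD, and levels of 0.24, -0.99, -0.27 and -1.43. LKO was lower by 1.23 (2.34-fold) on chow and 1.16 (2.23-fold) on HFD. HFD was lower than chow by 0.51 in F/F and 0.44 in LKO. Each of the 4 levels lay more than 2 SD of replicate spots from the next. The diet differences were, however, within 2 SD of the differences given by 2 probes of a gene (SD 0.37 in F/F and 0.41 in LKO). The profile nearest to that of Gadd45a among the other 9 genes was that of Egr1, at a distance of 0.23 between centred levels, the smallest of any pair. Gadd45b, in contrast, gave 340.0 in F/F chow, 189 in LKO chow, 245 in F/F HFD and 290.0 in LKO HFD, or 0.62, -0.18, -0.10 and -0.03. A single array, F/F chow, lay above the other 3, which were within 2 SD of replicate spots from neighbour to neighbour. It was 0.79 lower in LKO on chow and, as the sole member higher in LKO on HFD, 0.08 higher there.

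Set against F/F on HFD, 9 of the 10 genes had a lower level in LKO, as had 54.1% of the 15528 genes with a value, and 1 a higher level (45.9%). Egr1, Atf3 and Gadd45a were at least 2-fold lower, where 1.91% of all genes were, and 0 of the 10 were at least 2-fold higher (2.36% of all). The median difference was -0.67, against -0.03 over all genes. On chow, 8 of the 10 were lower in LKO (49.3% of 14981 genes) and 2 higher (50.7%). Egr1 and Gadd45a were at least 2-fold lower (1.03%) and 0 at least 2-fold higher (1.11%). The median was again -0.67, against 0.00 over all genes. The genes lower in LKO on both diets were Egr1, Fos, Junb, Ier2, Dusp1, Gadd45a and Zfp36, 7 of 10, beside 29% of the 14619 genes with a value on both. Egr1 and Gadd45a were at least 2-fold lower on both diets, as were 8 genes (0.0547%) of all. Since the genes were picked for these differences, nothing about them can be read from the shares. With normexp background correction, which shrinks differences of dim probes, Gadd45a was lower by 0.79 on HFD and 0.77 on chow. Egr1 was then lower by 0.90 on HFD, so that 1 of the 10 stayed at least 2-fold lower on each diet. A percentile over only the probes well above background on all 4 arrays gave Egr1 -0.998 on HFD, just short of 2-fold.

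**Figure D2:**
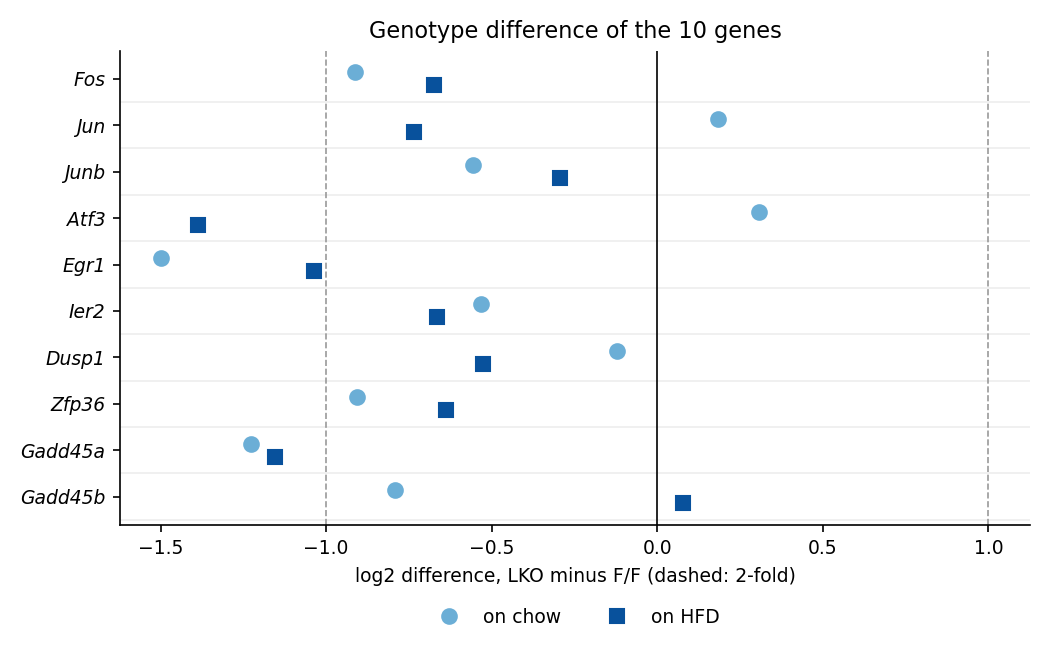
Log2 difference LKO minus F/F (x axis) of each of the 10 genes (y axis) on chow (circles) and on HFD (squares), 1 array against 1, with dashed lines at 2-fold. Egr1 and Gadd45a lie left of the 2-fold line on both diets, and Atf3, Jun and Gadd45b have points on both sides of 0.

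In the diet comparison, 5 of the 10 genes were higher on HFD in F/F (47.8% of 15358 genes) and 5 lower (52.2%). Atf3 was at least 2-fold higher (5.21% of all genes) and Junb at least 2-fold lower (2.94%). In LKO, 4 were higher (43.5% of 15242 genes) and 6 lower (56.5%), with Fos and Atf3 at least 2-fold higher (8.12%) and Junb at least 2-fold lower (4.07%). Atf3 was thus at least 2-fold higher on HFD in both genotypes, as were 3.02% of 14836 genes, and Junb at least 2-fold lower in both, as were 1.4%. In LKO the 2-fold difference of Junb was lost with quantile normalization (-0.99) and that of Fos with normexp (0.84). Atf3, dim on chow, was higher on HFD by 2.90 in F/F and 1.40 in LKO with normexp, against 3.51 and 1.82 with the main scaling. The medians of -0.10 in F/F and -0.07 in LKO stood beside -0.02 and -0.07 over all genes. The signs of Jun, Ier2 and Zfp36 in LKO, where their differences were -0.06, 0.02 and -0.08, turned under another scaling or background correction.

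**Figure D3:**
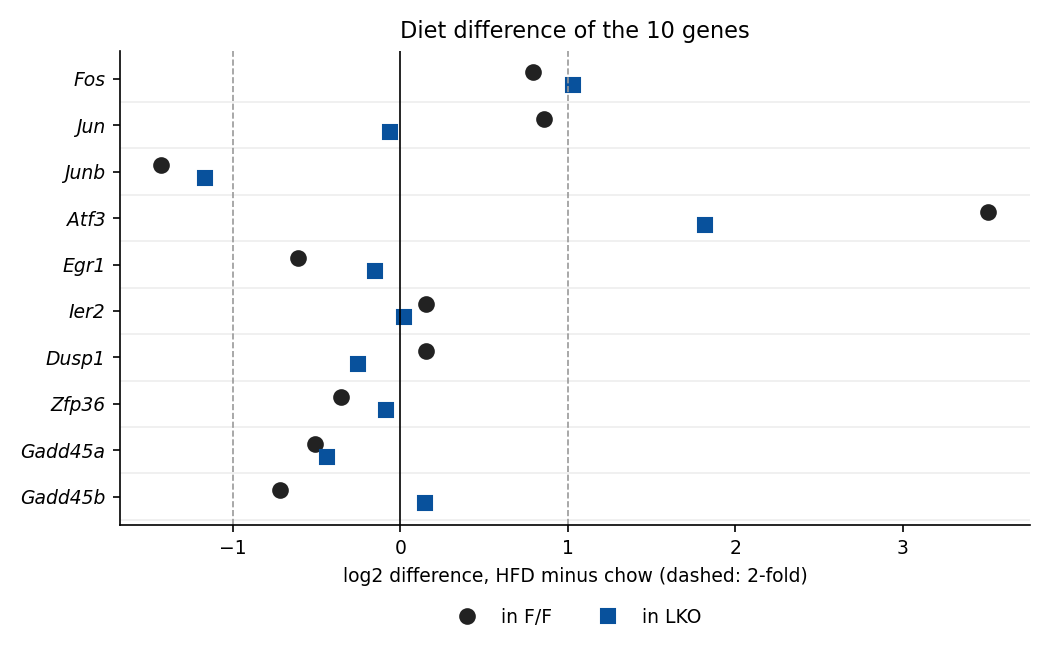
Log2 difference HFD minus chow (x axis) of each of the 10 genes (y axis) in F/F (circles) and in LKO (squares), 1 array against 1, with dashed lines at 2-fold. Atf3 lies right of the 2-fold line in both genotypes, at 3.51 in F/F and 1.82 in LKO, Junb lies left of it in both, and Dusp1, Jun and Gadd45b have points on both sides of 0.

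Relatives of the 10 genes were read from lists that were drawn up with earlier results of these arrays known. The counts of these and all later lists stand beside the shares over all genes with a value. Lower in LKO were 49.3% on chow and 54.1% on HFD, and higher were 50.7% and 45.9%. Many of the counts lie near these shares. In the AP-1 and ATF/CREB family, 17 of the 18 measured genes had a lower level in LKO on chow and 9 of 18 on HFD, and none differed 2-fold, with medians of -0.19 and 0.01. On chow, Fosb, a FOS paralogue, was lowest (-0.86) and Atf6 highest (0.05). Fosb was dim there, at 28.5 in F/F and 15.1 in LKO, and its other probe was not well above background on any array. On HFD, Maff, a small MAF protein, was lowest (-0.92) and Batf, an AP-1 factor of immune cells, highest (0.51). Fosl1 was not well above background on any array.

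Among EGR, NR4A, KLF and related factors, 16 of 23 were lower in LKO on chow (median -0.15) and 12 of 22 on HFD (median -0.05). Nr4a1, an orphan nuclear receptor induced with Egr1, had signals of 477 in F/F chow, 236 in LKO chow, 2356 in F/F HFD and 925 in LKO HFD. It was lower in LKO by 1.52 on HFD and 0.96 on chow, and higher on HFD in both genotypes, an order of arrays shared with Fos. Csrnp1, a nuclear protein, was lower in LKO by 1.01 on chow, whereas Myc was higher in LKO by 1.09 on HFD, with signals of 65.4 in F/F and 156 in LKO. Egr2, an EGR1 paralogue, was lower in LKO on chow (-0.27) and higher on HFD (0.50). Nr4a2 had the largest measured rise on chow (0.70), from signals of 29.4 in F/F and 45.8 in LKO. Its other probe, at 35.5 and 37.4, gave a rise of only 0.13. Egr4 was well above background only in LKO chow, at least 3.66-fold higher than in F/F chow, from a signal of 27.5, and Egr3 on no array.

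Of the other immediate early genes, 17 of 27 were lower in LKO on chow and 16 of 28 on HFD, with medians of -0.16 and -0.03. Socs3, a feedback inhibitor of cytokine signalling, had the largest fall on chow and the largest rise on HFD, with signals of 7072 in F/F chow, 2097 in LKO chow, 515 in F/F HFD and 1398 in LKO HFD. It was 1.70 lower in LKO on chow and 1.27 higher on HFD. Pim3, a serine/threonine kinase, was 1.04 lower in LKO on chow, where Edn1, encoding endothelin, was highest (0.84). Edn1 was dim on chow, with signals of 14.0 in F/F and 24.0 in LKO. Ccn1, a matrix protein, was 1.25 lower in LKO on HFD, where its signal was 212 against 449, and 0.04 lower on chow.

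Kinases and phosphatases act around these genes. Of 22 MAP kinases and their kinases, 11 were lower in LKO on chow and 10 on HFD, none by 2-fold, with the largest falls for Map3k8 on chow (-0.42) and Map2k6 on HFD (-0.78) and the largest rises for Map3k1 (0.50) and Mapk7 (0.54). Among the dual specificity phosphatases other than Dusp1, 3 of 9 were lower in LKO on chow and 2 of 9 on HFD, with medians of 0.05 and 0.34. Dusp2 was lowest on chow (-0.72) and highest on HFD (0.71), Dusp10 was highest on chow (0.71) and Dusp14 lowest on HFD (-0.50). Dusp10 was dim on chow, with signals of 9.93 in F/F and 15.6 in LKO.

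Beside Zfp36, its family and other binders of AU-rich elements had 6 of 9 genes lower in LKO on chow and 4 on HFD. They ranged from Zc3h12a, encoding the RNase regnase (-0.83 and -0.52), to Zfp36l1 (0.20 and 0.28). Zc3h12a was dim, with signals of 19.2 in F/F and 10.4 in LKO on chow. A dimmer Zfp36l1 probe went the other way, at -0.07 on chow and -0.18 on HFD. Among mRNAs known as ZFP36 targets, 6 of 7 were lower in LKO on chow (median -0.52) and 6 of 8 were higher on HFD (median 0.52). Cxcl1, a neutrophil chemokine, gave 22969 in F/F chow, 11083 in LKO chow, 1870 in F/F HFD and 4826 in LKO HFD, so that it was 1.99-fold lower in LKO on chow and 1.20 (log2) higher on HFD. The brighter probe of Tnf was 0.57 and 0.28 lower in LKO on chow and HFD, but its dimmer probe, well above background in LKO HFD and not in F/F HFD, exceeded F/F there by at least 0.63 on the log2 scale. Ier3 was the lowest on HFD (-0.46) and Plau the highest on chow (0.95). Plau was dim on chow, with 11.1 in F/F and 20.7 in LKO, and its other probe was not well above background on any array. By its brighter probe, Il6 was well above background in F/F chow and LKO HFD. On HFD that probe was at least 4.27-fold higher in LKO, from a signal of 40.1. The dimmer Il6 probe, with signals of 1.91 to 3.67, was not well above background on any array.

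The third GADD45 gene, Gadd45g, was lower in LKO on both diets, by 0.78 on chow and 0.87 on HFD, and on HFD in both genotypes, by 0.86 in F/F and 0.96 in LKO. Its signals were 35817 in F/F chow, 20128 in LKO chow, 23343 in F/F HFD and 14334 in LKO HFD. Of the 7 GADD45 relatives and partners, 5 were lower in LKO on chow and 3 on HFD, and Ccnb1, a mitotic cyclin, was highest on chow among those measured on both arrays (0.25). The other probes of Ccnb1 were not well above background on either chow array. Cdkn1a, the cyclin kinase inhibitor that p53 induces and a partner of GADD45 proteins, was 1.09 higher in LKO on HFD and 0.43 lower on chow. A dimmer Cdkn1a probe, with signals of 1.78 to 6.61, was not well above background on any array. The p53 targets as a list had 9 of 19 genes lower in LKO on chow and 9 of 20 on HFD, with medians of 0.00 and 0.02. In it Trp53inp1 was lowest on both diets (-0.97 and -0.84), and Pmaip1 was highest on chow (0.48).

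Other stress programmes were read next to them. Of 13 genes of the integrated stress response, which ATF4 drives and of which Atf3 is a known target, 8 were lower in LKO on chow and 7 on HFD. Asns, encoding asparagine synthetase, was higher in LKO by 1.04 on chow and 1.86 on HFD. A dimmer Asns probe gave 0.40 on chow and at least 1.43 on HFD. Psat1, of serine synthesis, was higher in LKO by 1.48 on HFD, though its other probe was not well above background on any array. Atf5 was lowest on chow (-0.68) and Fgf21 on HFD (-0.56). Of 14 heat shock genes, 12 were higher in LKO on chow, among them Hspa1a by 1.25, and 7 on HFD, where Hspb1 was highest (0.39) and Ahsa1 lowest (-0.30). The lowest on chow was Hspa4l (-0.24). Of 14 glucocorticoid targets, 5 were lower in LKO on chow and 10 on HFD, from Tsc22d3 (-0.36) to Lcn2 (0.87) on chow and from Ddit4 (-0.63) to Fkbp5 (0.34) on HFD.

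**Figure D4:**
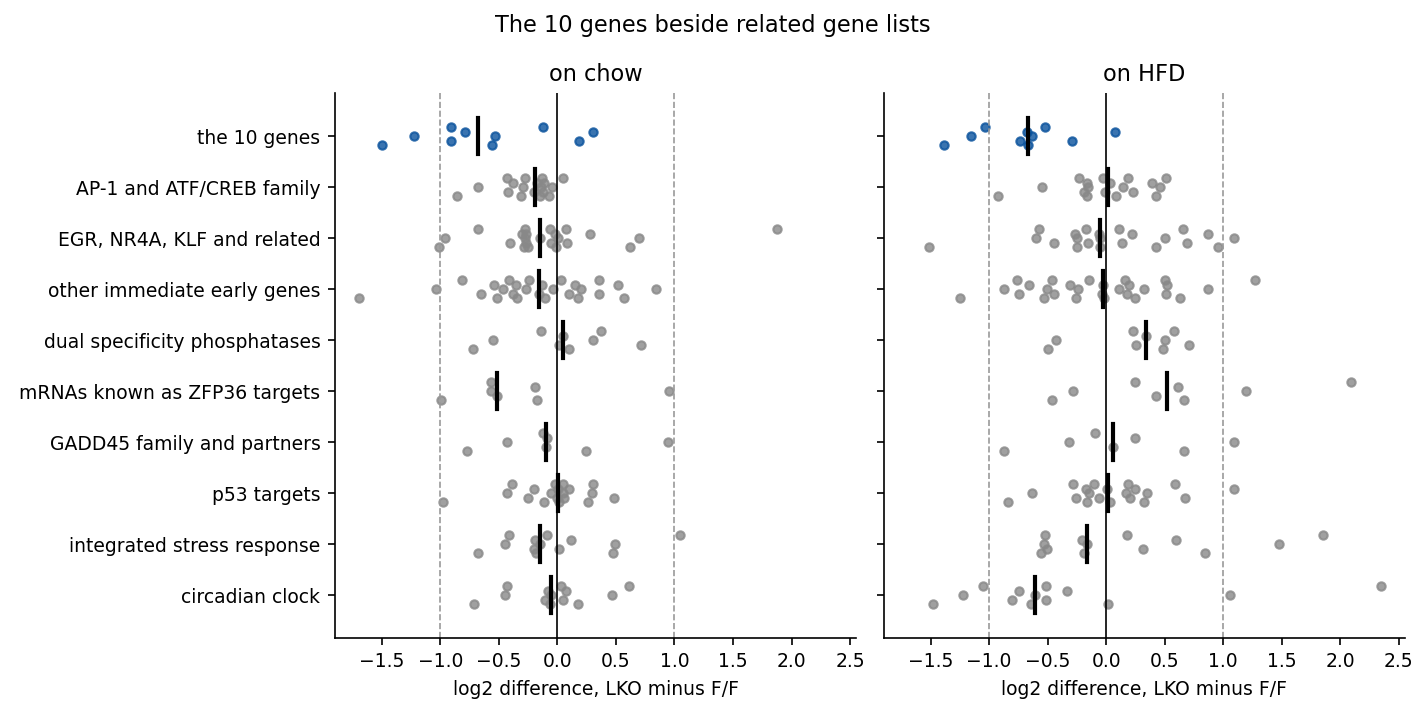
Log2 difference LKO minus F/F (x axis) on chow (left) and HFD (right) for the 10 genes (blue) and for genes of 9 related lists (grey), 1 point per gene with bounds included and a black bar at the median of each list. The 10 genes have medians of -0.67 on both diets. The related lists have medians between -0.61 and 0.52, with the clock list lowest on HFD. The 10 genes were chosen from differences on these same arrays, so nothing can be read from their lower medians.

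Lists for the clock and for other cell types were read on the same arrays. The clock list had 10 of 13 measured genes below F/F in LKO on HFD and 7 on chow, with medians of -0.61 and -0.06. On HFD, Dbp (-1.22), Ciart (-1.48) and Nr1d1 (-1.05) were lower and Arntl (2.35) and Cry1 (1.06) higher in LKO, and Arntl gave signals of 145 in F/F chow, 102 in LKO chow, 31.0 in F/F HFD and 178 in LKO HFD. On chow the extremes were Nr1d1 (-0.72) and Per2 (0.61), though a dimmer Per2 probe gave -0.06. Red cell genes, 6 of 8 with a value, were all lower in LKO on HFD (median -0.97), and 3 of 6 on chow (median 0.00), with a sum of levels (relative to the 75th percentile) of 162 in F/F and 161 in LKO on chow, and of 323 and 163 on HFD. All 10 exocrine pancreas genes were lower in LKO on chow (median -1.06) and all 10 higher on HFD (median 1.87), the summed levels being, in the same order, 25.5, 14.9, 13.4 and 49.7.

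Macrophage markers were higher in LKO on HFD in 10 of 12 cases (median 0.55) and on chow in 8 of 11 (median 0.02), with summed levels of 91.4, 82.7, 108 and 128. T cell markers were higher in 6 of 7 cases on HFD (median 0.76) and lower in 6 of 6 on chow (median -0.20), with summed levels of 21.8, 19.4, 15.8 and 14.8. A sum follows the brightest genes of a list and can move against the count. It did so between genotypes for the T cell markers on HFD and the macrophage markers on chow. Neutrophil markers were lower in 5 of 7 cases on each diet (medians of -0.30 on HFD and -0.42 on chow), summing to 22.9, 12.7, 23.8 and 15.4, and Ngp was not well above background on any array. Stellate cell and fibroblast markers were higher in 10 of 10 cases on both diets (medians of 0.41 on HFD and 0.20 on chow). B cell markers were higher in 2 of 4 cases on HFD and 0 of 4 on chow, cholangiocyte markers in 5 of 6 and 1 of 5, and endothelial markers in 5 of 8 and 7 of 8. Hepatocyte markers were lower in LKO in 6 of 9 cases on HFD (median -0.16) and in 2 of 9 on chow (median 0.04). The part of these lists in the differences of the 10 genes was not tested.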

How the data were processed

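The authors hybridised liver RNA to 4 Agilent arrays, 1 per combination of genotype and diet. The deposited values used are the intensity of each spot (processed signal, background subtracted) with the median signals and flags, per the file headers, and Agilent Feature Extraction 12.0.3.1 is named in the submitters' processing notes. A deposited table of values, also intensity, equals the processed signal times 1 factor per array (2.10 to 2.63), whose origin is not stated, with column medians of 33.2 to 36.1. It was used as an alternative only. The labels name another RNA kit than the paper's methods. 0 columns of per-sample values were left unused for lack of a sample.

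Each processed signal was taken to log2, and the 75th percentile over an array's non-control spots was subtracted (Python 3.11.15, pandas 2.3.3, numpy 2.4.6). Outlier spots were left out and spots of a probe averaged. Accessions were matched to RefSeq genes of GRCm38.p6 (33767 of 56605 probes), and the brightest probe stood for a gene. For a gene below background on 1 array of a comparison, the difference is a bound. It is taken from the larger of the gene's level there and the lowest level well above background on that array. Where the level on the other array does not exceed this, the gene has no value. A gene below background on both arrays also has none. The members and lists were chosen with earlier results of these data known. Named from each list were the genes with the largest measured rise and fall between genotypes for each diet, and any gene with a genotype difference of at least 2-fold. Alb, Egr2, Tnf, and the genes below background on every array were named outside that rule, after their values were seen. The TATA box was added to the motif search in the same way. The CArG motif is CC, 6 bases A or T, then GG. No test was made, for want of replicates. The steps were tested on simulated data.

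As alternatives, background was corrected by normexp (offset 50, limma 3.58.1, R 4.3.3), arrays were quantile normalized, the percentile was restricted to probes that passed the flag throughout, the deposited table was used, all probes of a gene were averaged, the flag was required on every array or ignored, and thresholds were set at 1.5-fold and 4-fold. The dimmer probe of Junb was added after the data were seen. Some results that the naming rule gives are not reported here. Figures were drawn with matplotlib 3.10.9.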

Additional observations from a re-analysis of the deposited data

Results flagged for a closer look

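For Atf3 and Jun, the genotype difference had opposite signs on the diets, each side larger than 1 SD of replicate spots, though the chow side of both genes lay within 2 SD. Atf3 was 1.39 lower in LKO on HFD and 0.31 higher on chow, so that the differences were -1.69 apart. For Jun the difference was -0.73 on HFD and 0.18 on chow, -0.92 apart. For Dusp1, the diet difference had opposite signs in the genotypes, 0.15 in F/F and -0.25 in LKO, -0.40 apart, and the side in F/F lay within 2 SD. With 1 array per condition none of these gaps between differences was tested.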

How the results depend on the processing

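No paired analysis was possible because each condition has 1 array, and for the same reason leaving out a replicate was not run. Of 320 values of single genes under an alternative, 270 moved by less than the SD of replicate spots over all probes (0.096), 50 moved by more, and no difference of at least 2-fold changed sign. The 270 include values that were fixed in advance and are no measure of stability. Requiring the flag on every array, or ignoring it, left every member unchanged, as all their probes passed it. Averaging the probes of a gene, or taking the dimmer probe, changed only Junb. Its genotype difference on HFD was -0.13 with averaged probes and 0.03 with the dimmer probe, against -0.29 with the main setting. Of 40 pairs of gene and comparison, 36 kept their sign under every alternative. The exceptions were Junb in LKO against F/F on HFD, 0.03 with its dimmer probe, and Jun, Ier2 and Zfp36 in the diet comparison in LKO.

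On HFD, the 3 genes at least 2-fold different between genotypes became 1 with normexp, 7 at 1.5-fold and 0 at 4-fold. They became 2 with the percentile restricted to probes that passed the flag throughout, where Egr1 was at -0.998. On chow, the 2 became 1 with normexp, 5 at 1.5-fold and 0 at 4-fold, and the median of -0.67 became -0.85 with the dimmer probe of Junb. In the diet comparison, the 2 genes of F/F became 6 at 1.5-fold and 1 at 4-fold, and the 3 of LKO became 0 at 4-fold, 2 with normexp (without Fos) and 2 with quantile normalization (without Junb). With the deposited table the medians were 0.035 in F/F and 0.075 in LKO. That table moved the median of all genes by 0.14 in F/F and 0.15 in LKO, and relative to it the members' medians were -0.08 and 0.00, as with the main scaling. It also moved the share of higher genes among those at least 2-fold different, from 63.9% to 76.1% in F/F and from 66.6% to 77.7% in LKO. The numbers of genes at least 2-fold different in LKO against F/F fell with normexp from 366 higher and 296 lower to 94 and 85 on HFD, and from 167 and 154 to 20 and 19 on chow. Each gene but Junb rests on 1 probe printed as 1 spot, and for the dimmer genes (Gadd45a, Gadd45b, Atf3, Fos and Ier2) the signal over background limits the precision.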
